A study of Rattus norvegicus with 18 samples.

Results

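*Vgf*, *Alkal2* and *Calca* are neuronal genes whose secreted products have been linked to pain. Each was followed as 1 Ensembl transcript, chosen by its identifier (ENSRNOT00000041808, ENSRNOT00000006921 and ENSRNOT00000055124), so the 3 members stood among 41078 transcripts in the count table. RNA came from dorsal root ganglia (DRGs), the clusters of sensory neurons beside the spinal cord, taken from the left side at L3 and L4 of 18 Sprague Dawley rats. The naive group had no procedure. The sham group was anesthetized, and the skin over the left knee was cut and sutured. The TKA group was anesthetized and received a complete total knee arthroplasty of the left knee, in which the joint surfaces of femur and tibia are replaced by implants. DRGs of operated rats were taken 24 h later, and each group held 3 rats labelled male and 3 labelled female. The sham rats shared anesthesia and skin incision with the TKA rats but not the opening of the joint. Ages are not given in the sources used here.

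*Vgf* encodes a granin-like protein of dense-core vesicles that is induced by neurotrophins and cut into several bioactive peptides. *Alkal2* encodes a secreted ligand of the receptor tyrosine kinases ALK and LTK. *Calca* gives rise by alternative splicing to calcitonin and to the alpha form of calcitonin gene-related peptide (CGRP), which peptidergic nociceptors release at both ends of the axon. CGRP acts through a receptor built from CALCRL and RAMP1.

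The upstream sequences of the 3 genes are shown because *Vgf* and *Alkal2* were high in the same rats, as described later, and because *Vgf* is a textbook target of the cAMP response element (CRE). All 3 symbols matched an entry in RefSeq (assembly GRCr8, whereas the counts were made on rn6). The match was by symbol, with the first entry taken, so the start may not be that of the counted Ensembl transcript. The 250 bases before the annotated start are given 5′ to 3′ on the strand of the gene, with the CRE or its core TGACG in capitals. The windows are *Vgf* at chr12:25277021-25277270 (minus strand), *Alkal2* at chr6:53223132-53223381 (plus strand) and *Calca* at chr1:178317530-178317779 (minus strand).
Vgf: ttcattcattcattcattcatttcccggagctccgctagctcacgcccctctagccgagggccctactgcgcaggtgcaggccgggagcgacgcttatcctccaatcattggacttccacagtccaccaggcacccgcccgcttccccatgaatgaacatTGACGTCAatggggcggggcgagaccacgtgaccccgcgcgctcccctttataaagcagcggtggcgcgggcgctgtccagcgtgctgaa
Alkal2: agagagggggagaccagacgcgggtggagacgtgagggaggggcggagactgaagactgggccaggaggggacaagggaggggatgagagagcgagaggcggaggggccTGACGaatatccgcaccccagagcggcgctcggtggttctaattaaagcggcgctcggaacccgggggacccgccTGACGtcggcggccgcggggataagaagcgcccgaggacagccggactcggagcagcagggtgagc
Calca: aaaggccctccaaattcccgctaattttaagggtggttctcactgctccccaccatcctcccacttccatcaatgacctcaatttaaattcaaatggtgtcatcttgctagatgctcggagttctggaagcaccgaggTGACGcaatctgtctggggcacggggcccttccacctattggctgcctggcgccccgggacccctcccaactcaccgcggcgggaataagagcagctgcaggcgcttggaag
The full CRE, TGACGTCA, was present in the *Vgf* window with its outermost base 90 bases upstream of the start, and was not found in the other two. It was present on either strand in 1.59% of 33469 RefSeq promoters of the same length. The core TGACG, searched on both strands and contained in the full CRE, was found in all 3 windows and in 18.2% of promoters. In *Alkal2* it began 141 and 66 bases upstream, and in *Calca* 112 bases upstream. The *Vgf* window also held TATAAA, searched on the strand of the gene, 41 bases upstream (8.06% of promoters) and CACGTG on both strands 65 bases upstream (5.59%). TGANTCA, searched on both strands, was found in none of the 3 windows and in 6.34% of promoters. The GC content was 61.6% for *Vgf*, 68.4% for *Alkal2* and 56.4% for *Calca*, against a median of 51.2% over all promoters. These motifs were chosen with the levels known, and a match of letters shows no binding.

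Total counts ranged from 20230562 to 29343899 per rat, and each level below is a CPM value, a count scaled to a common library size, after TMM scaling over the 18 rats. Neurofilament transcripts (*Nefl*, *Nefm* and *Nefh*) were abundant in every library, as is usual for DRG. TKA rat 2 stood apart from the other 17 rats. Its summed level of 5 skeletal muscle transcripts was 8835 CPM, against 26.4 to 667 CPM in naive and sham rats, and that of 5 myelinating Schwann cell transcripts was 88743 CPM, against 6336 to 16891 CPM. Its macrophage sum (5 transcripts) was 208.7 CPM against 24.9 to 70.7 CPM, and its satellite glia sum (3 transcripts) was 2679 CPM against 287.7 to 674.2 CPM. The latter came from *Glul* and *Gfap* (1638 and 992 CPM), whereas *Fabp7*, at 48.4 CPM, lay within the naive and sham range of 26.6 to 51.8 CPM. Its sum of 8 neuronal transcripts, listed for large sensory neurons, was 17198 CPM, against 34251 to 47083 CPM. This list does not measure the peptidergic nociceptors that release CGRP. TKA rat 2 was the lowest of the 18 rats for 5 of these 8 and the highest for 1. *Isl1*, a sensory neuron transcription factor, was 13.3-fold below the median of the other rats, the furthest of the 8. *Kcnc1* and *Scn1a* were at 0.952 and 0.809 of that median, and *Ntrk3* was above it, at 5.14 against 2.15 CPM. TKA rat 6 came next, with a Schwann cell sum of 50220 CPM and a neuronal sum of 21499 CPM. The neuronal sums of TKA rats 1 and 5, 28757 and 30166 CPM, were also below every naive and sham rat, so that this held for 4 of 6 TKA rats. This sum is mostly the neurofilament level, and its members differed. *Slc17a6* was 272.2 and 276.2 CPM in TKA rats 1 and 5, above the 182.1 to 251.2 CPM of naive and sham rats. *Isl1* was 62.7 and 90.5 CPM in them, against 79.0 to 111.6 CPM. In TKA rats 3, 4 and 6, *Slc17a6* was 264.4, 267.0 and 194.9 CPM and *Isl1* was 60.2, 72.3 and 62.9 CPM. For *Isl1*, only TKA rat 5 thus reached the naive and sham range. TKA rat 4, labelled female, had 3472 counts over 3 transcripts that gave 3097 to 5025 counts in males by label and 0 or 1 in the other females, and it had 0 counts on a transcript that gave 350 to 627 counts in those females. The members are given below with and without TKA rat 2, and by sex also without TKA rat 4.

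*Vgf* was lowest and most uniform in naive rats, intermediate in sham rats and highest in TKA rats. The 6 naive rats had 28.7, 28.5, 29.5, 28.2, 31.8 and 33.8 CPM (mean 30.1 ± 2.25, SD, n = 6). The 6 sham rats had 30.6, 64.7, 64.3, 42.4, 67.0 and 43.6 CPM (52.1 ± 15.2, n = 6). The 6 TKA rats had 99.7, 36.2, 149.3, 150.7, 96.6 and 91.8 CPM (104.1 ± 42.5, n = 6). All 6 TKA rats lay above all 6 naive rats, 5 of 6 lay above every sham rat, and 5 of 6 sham rats lay above every naive rat. The exceptions were TKA rat 2 and sham rat 1. The spread widened with the level, from a coefficient of variation of 7.48% in naive rats to 29.2% in sham and 40.9% in TKA rats.

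In edgeR's quasi-likelihood test, with each pair of groups fitted alone and p-values adjusted by the Benjamini-Hochberg method over all transcripts tested, *Vgf* was 3.48-fold higher in TKA than in naive rats (log2 fold-change 1.80, SE 0.26, adjusted p = 0.0185). This passed both thresholds, an adjusted p below 0.05 with 1.5-fold or more. Only 13 of 15170 transcripts, 0.0857%, were called in this comparison, and *Vgf* ranked 5th by p. All 6 TKA rats lay above all 6 naive rats for 1.16% of transcripts. The call was lost, with an adjusted p of up to 0.0687, when any 1 of the 6 naive rats, TKA rat 1 or TKA rat 6 was left out, and without TKA rat 2 the log2 fold-change was 1.97 (SE 0.14, adjusted p = 4.15e-06). Taken as a single value, mean log2 CPM differed in an exact two-sided permutation test (p = 0.00216, the smallest that 6 rats against 6 can give). The members were chosen with earlier results of these data known. Their ranks and single-transcript p-values, here and below, therefore describe these rats and are not independent tests.

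The 2 steps that make up this difference were of similar size for *Vgf*, and neither passed the adjusted threshold by itself. From naive to sham the log2 fold-change was 0.80 (SE 0.16, adjusted p = 0.656), and from sham to TKA it was 1.0 (SE 0.29, adjusted p = 0.505). The exact permutation p for the single transcript was 0.00649 for the first step and 0.0325 for the second, and 0.00433 for the second without TKA rat 2, the smallest that 5 rats against 6 can give. DESeq2 called the first step (log2 fold-change 0.80, adjusted p = 0.00671). The difference between the steps was 0.20 on the log2 scale with an SE of 0.43 (adjusted p = 0.9996), which leaves a wide range of differences possible. A slope over all 18 rats, with naive scored 0, sham 1 and TKA 2, was 0.90 per step (SE 0.12, adjusted p = 0.00213). This slope passed the adjusted threshold for 272 of 16048 transcripts, 1.69%, of which the upward ones made up 1.4% of those tested, and *Vgf* ranked 3rd by p. It passed without any 1 of the 18 rats.

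**Figure D1:**
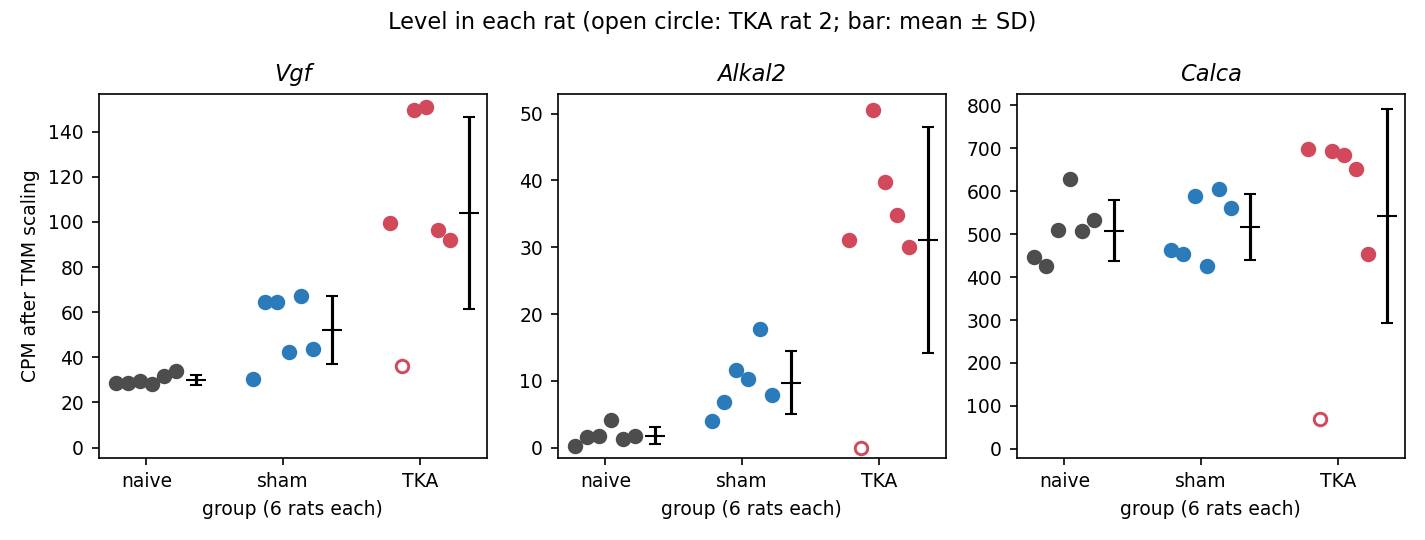
Level of *Vgf*, *Alkal2* and *Calca* (y axis, CPM after TMM scaling) in each of 6 naive, 6 sham and 6 TKA rats (x axis), in the order of rat number within a group, with the mean and SD as a bar. *Vgf* and *Alkal2* step upward from naive to sham to TKA, *Calca* does not, and TKA rat 2 (open circle) is the lowest TKA rat in each panel, at 36.2, 0 and 68.9 CPM.

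*Alkal2* had few counts in naive rats and had the largest fold differences of the 3 members. Naive rats had 0.302, 1.54, 1.69, 4.15, 1.30 and 1.76 CPM (1.79 ± 1.27, SD, n = 6), which were 7, 32, 38, 91, 28 and 36 counts. Sham rats had 3.94, 6.90, 11.6, 10.3, 17.8 and 7.93 CPM (9.74 ± 4.77, n = 6), or 82, 171, 267, 229, 422 and 197 counts. TKA rats had 31.2, 0, 50.5, 39.8, 34.8 and 30.0 CPM (31.0 ± 16.9, n = 6), or 748, 0, 1461, 832, 902 and 698 counts. Apart from TKA rat 2, every TKA rat lay above every sham rat, and apart from sham rat 1, which fell just below naive rat 4, every sham rat lay above every naive rat. The count of 0 in TKA rat 2 allows up to 0.153 CPM (3 counts, counting error only), below each of the other 17 rats.

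Between TKA and naive rats the fitted log2 fold-change of *Alkal2* was 4.12, or 17.4-fold (SE 0.89, adjusted p = 0.104), and it was not called. Without TKA rat 2 it was 4.39 (SE 0.39, adjusted p = 3.76e-05) and was called, as it was by DESeq2 on all 12 rats (4.11, adjusted p = 0.00321). From naive to sham the log2 fold-change was 2.45 (SE 0.46, adjusted p = 0.648). This was the lowest unadjusted p of all 15153 transcripts in that comparison, where *Vgf* ranked 4th. DESeq2 called it (2.45, adjusted p = 0.000139), and the exact permutation p for the single transcript was 0.00433. From sham to TKA the log2 fold-change was 1.67 (SE 0.75, adjusted p = 0.557), and without TKA rat 2 it was 1.92 (SE 0.29, adjusted p = 0.0864). The exact permutation p was 0.84 with TKA rat 2 and 0.00433 without it. For TKA against naive rats it was 0.0736 with TKA rat 2 and 0.00433 without it.

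The slope of *Alkal2* over the 3 groups was 2.05 per step on the log2 scale (SE 0.38, adjusted p = 0.0175), and it passed without any 1 of the 18 rats. The second step minus the first was -0.78 (SE 1.19, adjusted p = 0.9996), and it ranged from -1.24 without naive rat 4 to -0.25 without sham rat 5. The data thus did not separate equal steps from a larger first or a larger second step. Counted per 100 *Vgf* counts, *Alkal2* was 6.03 ± 4.60 in naive, 18.4 ± 6.18 in sham and 26.7 ± 13.5 in TKA rats (SD, n = 6 each). These ratios ranged from 1.05 to 14.8, from 10.7 to 26.6 and from 0 to 36.0 in the 3 groups, so neighbouring groups overlapped.

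*Calca* had similar levels in naive and sham rats, and its level in TKA rats turned on TKA rat 2. Naive rats had 446.6, 426.4, 509.6, 627.9, 508.0 and 532.3 CPM (508.5 ± 71.3, SD, n = 6). Sham rats had 463.3, 454.3, 588.2, 426.7, 606.5 and 560.2 CPM (516.5 ± 77.3, n = 6). TKA rats had 699.0, 68.9, 693.4, 685.8, 651.5 and 453.5 CPM (542.0 ± 249.8, n = 6). TKA rats 1, 3, 4 and 5 lay above all naive and all sham rats, TKA rat 6 lay within their range and TKA rat 2 was 7.73-fold below the median of the other 17 rats. The naive and sham ranges overlapped almost entirely.

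The log2 fold-change of *Calca* was 0.03 (SE 0.11, adjusted p = 0.998) from naive to sham, 0.07 (SE 0.38, adjusted p = 0.962) from sham to TKA and 0.10 (SE 0.38, adjusted p = 0.909) from naive to TKA. Its slope was 0.05 per step (SE 0.16, adjusted p = 0.888). The SE of the first of these was smaller than that of *Vgf* in the same comparison, whereas those that involve TKA rats were wide. Without TKA rat 2 the log2 fold-change was 0.33 against naive rats (SE 0.12, adjusted p = 0.188) and 0.29 against sham rats (SE 0.13, adjusted p = 0.619). The difference in mean log2 CPM, which weights each rat equally, was -0.21 between TKA and naive rats (exact permutation p = 0.965) and 0.32 without TKA rat 2 (exact permutation p = 0.0736), so that its sign depended on that rat. Without TKA rats 2 and 6, a choice made after seeing the data, it was 0.43 (SE 0.089, adjusted p = 0.0260) in edgeR, which is less than 1.5-fold.

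**Figure D2:**
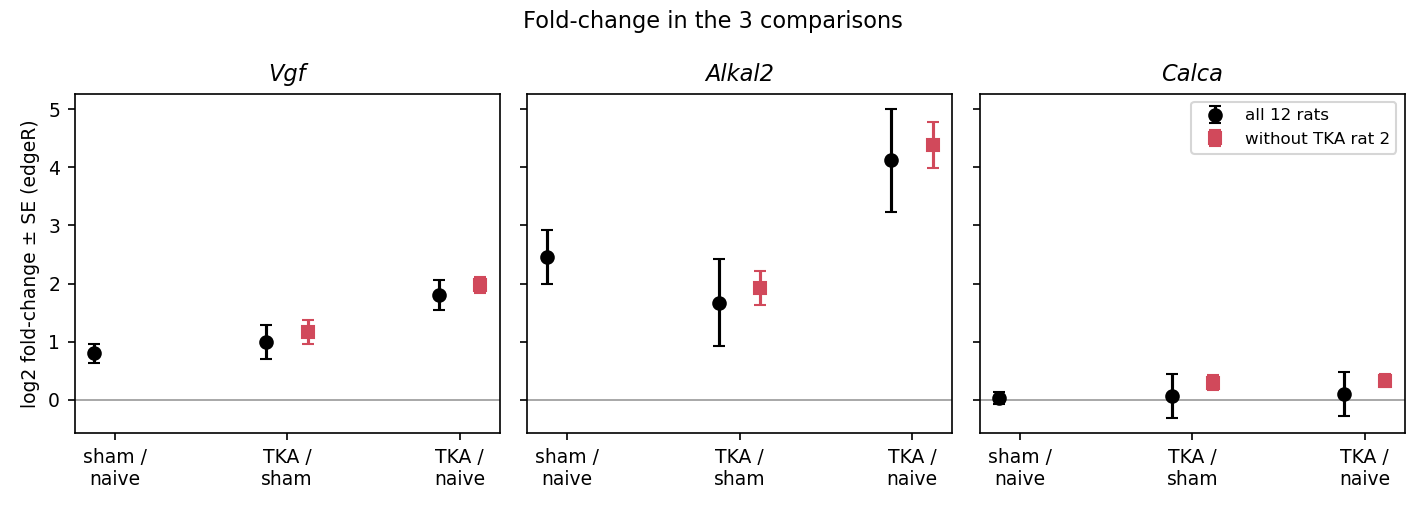
Log2 fold-change with its SE (y axis) from edgeR in each of the 3 comparisons (x axis) for *Vgf*, *Alkal2* and *Calca*, with all 12 rats of a pair (black circles) and without TKA rat 2 (red squares). Leaving out TKA rat 2 narrows the SE of *Alkal2* between TKA and naive rats from 0.89 to 0.39 and raises *Calca* from 0.10 to 0.33.

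Read against all transcripts, no first step passed edgeR's test. Between sham and naive rats 0 of 15153 transcripts (0%) were called. An unadjusted p under 0.05 was found for 4.12%, no more than an absence of change would give, with *Vgf* and *Alkal2* but not *Calca* among these. DESeq2 called 5 transcripts there, *Vgf* and *Alkal2* among them, and voom called 0. All 6 sham rats lay above all 6 naive rats for 0.0462% of transcripts, which included none of the 3 members. Between TKA and sham rats 0 of 15320 (0%) were called, 8.84% had an unadjusted p under 0.05, again with *Vgf* and *Alkal2*, and 0.444% had all 6 TKA rats above all 6 sham rats, again with none of the members. DESeq2 called 67 there and voom 1. Between TKA and naive rats 17.2% had an unadjusted p under 0.05, and *Vgf* and *Alkal2*, ranked 5th and 60th of 15170, were among these. The 3 comparisons share their rats in pairs, so their values are not independent of each other. In bulk tissue, fewer cells of a type and less RNA per cell cannot be told apart.

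Among rats labelled male, mean log2 CPM of *Vgf* was higher by 0.80 in sham than in naive rats, and among those labelled female by 0.68 (3 rats against 3, where an exact test cannot go below p = 0.10). For TKA against naive rats the differences were 1.49 in rats labelled male and 1.82 in those labelled female. Without TKA rat 2 the first was 2.08, and without TKA rat 4 the second was 1.59. TKA rat 4 is kept under its label here, though its counts given above were like those of rats labelled male. For *Alkal2* the sham difference was 2.73 in rats labelled male and 2.37 in those labelled female. The TKA difference was 2.31 and 3.97 by the same labels. It was 5.26 in labelled males without TKA rat 2 and 3.87 in labelled females without TKA rat 4. For *Calca* the TKA difference was -0.51 in labelled males and 0.08 in labelled females with all rats. It was 0.60 and -0.03 under the same omissions, so that both signs turned. The interaction of labelled sex with TKA surgery was 0.12 (SE 0.53) for *Vgf*, -0.69 (SE 1.69) for *Alkal2* and 0.01 (SE 0.80) for *Calca* in edgeR, with adjusted p-values of 0.995, 0.995 and 0.9995. Its sign for *Vgf* and *Calca* changed when TKA rat 2 or 4 was left out. Without TKA rat 2 it was -0.26 (SE 0.28) for *Vgf*, -1.28 (SE 0.68) for *Alkal2* and -0.50 (SE 0.21) for *Calca*, with adjusted p-values in edgeR of 0.930, 0.877 and 0.847. No sex difference passed the adjusted threshold, and the values depended on which rats were kept.

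Within the TKA group, TKA rat 2 was the lowest rat for each of the 3 members, and the members correlated over its 6 rats. On log2 CPM, *Vgf* and *Alkal2* had Pearson's r = 0.931 (exact permutation p = 0.0167, n = 6) and Spearman's rho = 0.886 (exact permutation p = 0.0333, n = 6). Without the 2 rats farthest from the median of *Vgf*, r was 0.968, over TKA rats 1, 3, 5 and 6 only. TKA rat 3 was the highest of these for both, at log2 CPM of 7.22 and 5.66, where the next values were 6.64 and 5.12. So few rats cannot show that the relation is stable. Over all 6 rats of a group, r of *Vgf* with *Alkal2* was 0.734 in sham rats (exact permutation p = 0.0889) and 0.02 in naive rats (exact permutation p = 0.872). The value in sham rats fell to -0.05 without the 2 farthest rats. In TKA rats *Calca* had r = 0.933 with *Vgf* (exact permutation p = 0.0278) and r = 0.988 with *Alkal2* (exact permutation p = 0.0278), which fell to 0.519 and 0.585 without the 2 farthest rats, and rho was 0.771 (exact permutation p = 0.103) and 0.657 (exact permutation p = 0.175). After adjustment over the 9 relations of 3 pairs in 3 groups, none passed 0.05, with the lowest adjusted p at 0.0833 for r and 0.263 for rho in these exact permutation tests.

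**Figure D3:**
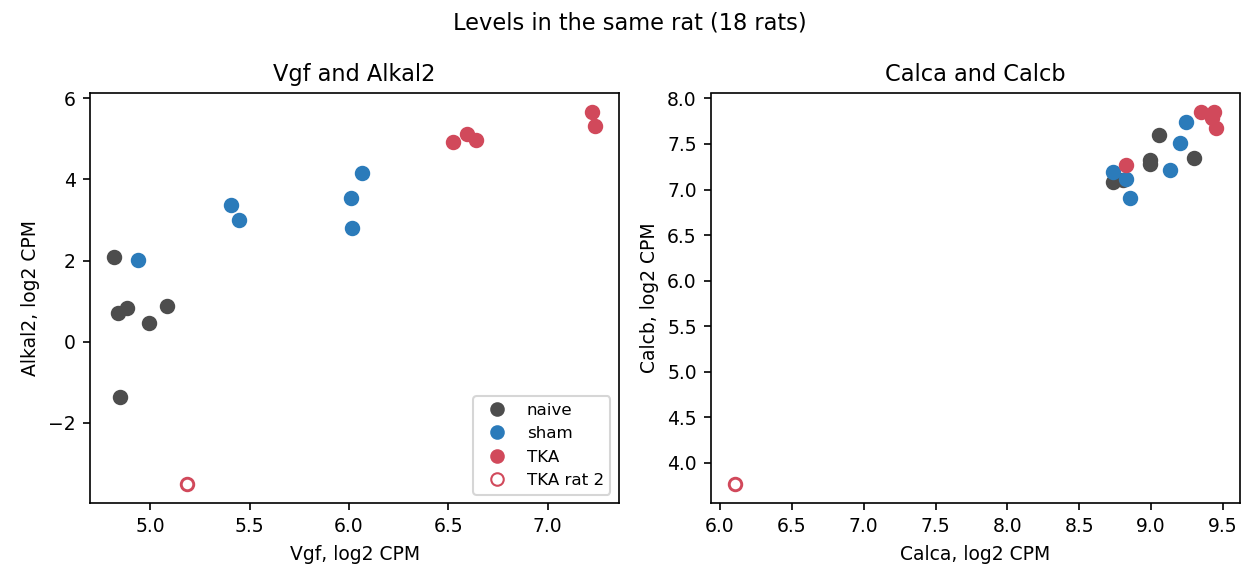
Log2 CPM of *Alkal2* against *Vgf* (left) and of *Calcb* against *Calca* (right), each point being 1 of 18 rats coloured by group, with TKA rat 2 as an open circle. Apart from TKA rat 2, the groups follow each other upward for *Vgf* and *Alkal2*, while *Calca* and *Calcb* overlap between groups and drop together in TKA rat 2.

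Across all 18 rats, the transcripts with a profile most like that of *Vgf*, among the 16047 other transcripts tested and with a name at hand, were *Tnfrsf1a*, a receptor for tumor necrosis factor (r = 0.943), *Socs3*, a feedback inhibitor of cytokine signaling (0.925), *Gadd45g* (0.901), *Flrt3* (0.899) and *Pvr* (0.897). Without TKA rat 2 they were *Ccl2*, a monocyte chemokine (0.961), *Tnfrsf1a* (0.943), *Socs3* (0.933), *Pvr* (0.915) and *Flrt3* (0.910). *Alkal2* had *Ccl2* first in both cases (0.908 over 18 rats and 0.915 over 17). Over 18 rats the next named ones were *Vgf* (0.806), *Jun* (0.798), *Flrt3* (0.797) and *Pprc1* (0.783), at ranks 15, 19, 20 and 29 of all 16047. Over 17 rats *Vgf* was second of all 16047 transcripts (0.903), before *Tnfrsf1a* (0.861), *Socs3* (0.845) and *Litaf* (0.836). These are descriptions over rats that share their group and library, and groups that differ in level raise such an r.

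*Calca* was less like the other members. Over 18 rats its r was 0.354 with *Vgf* and 0.732 with *Alkal2*, and over 17 rats without TKA rat 2 it was 0.628 and 0.619. Over 18 rats the closest named transcript was *Calcb*, which encodes the beta form of CGRP (r = 0.985, rank 1 of 16047). The next named ones were *Ptgir*, a prostacyclin receptor (0.973, rank 4), and *Slc17a6*, a vesicular glutamate transporter of neurons (0.970, rank 8). *Capn5* (0.969, rank 12) and the second named *Calca* transcript (0.966, rank 15) followed, with transcripts without a name between them. All of these r values contain TKA rat 2. Without it the closest named ones were *Calcb* (0.861, rank 2) and *Emp3* (0.821, rank 4), and a transcript without a name came first (0.9015). *Ptgir* (0.729), *LOC100125364* (0.728) and *Atf4* (0.725) came only at ranks 48, 50 and 53. *Slc17a6* was 8.58-fold and *Calcb* 11.9-fold below the median of the other rats in TKA rat 2, beside 7.73-fold for *Calca*.

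Setting *Vgf* against *Calca* in the same library removes the scaling between libraries, a ratio chosen after seeing the data. Per 100 *Calca* counts, the naive rats had 6.43, 6.68, 5.78, 4.48, 6.26 and 6.35 *Vgf* counts (6.0 ± 0.798, SD, n = 6). The sham rats had 6.60, 14.3, 10.9, 9.93, 11.0 and 7.78 (10.1 ± 2.70, n = 6). The TKA rats had 14.3, 52.6, 21.5, 22.0, 14.8 and 20.3 (24.3 ± 14.3, n = 6), and all of them lay above all sham and naive rats, TKA rat 1 only just above sham rat 2. TKA rat 2 was among them with *Vgf* at 36.2 CPM, within the sham range of 30.6 to 67.0 CPM, and *Calca* 7.73-fold below the median of the other rats. On the log2 scale the ratio was 1.65-fold higher in sham than in naive rats (exact permutation p = 0.00433). It was 2.23-fold higher in TKA than in sham rats (exact permutation p = 0.00216), and 1.87-fold without TKA rat 2 (exact permutation p = 0.00433). Between TKA and naive rats it was 3.66-fold higher (exact permutation p = 0.00216), and 3.07-fold without TKA rat 2, whose high ratio came with 712 *Vgf* and 1353 *Calca* counts. Of 16222 transcripts with at least 10 counts in 6 rats, 0.136% had a ratio to *Calca* that was higher in all 6 TKA rats than in all 6 naive rats. The share for TKA against sham rats was not counted.

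**Figure D4:**
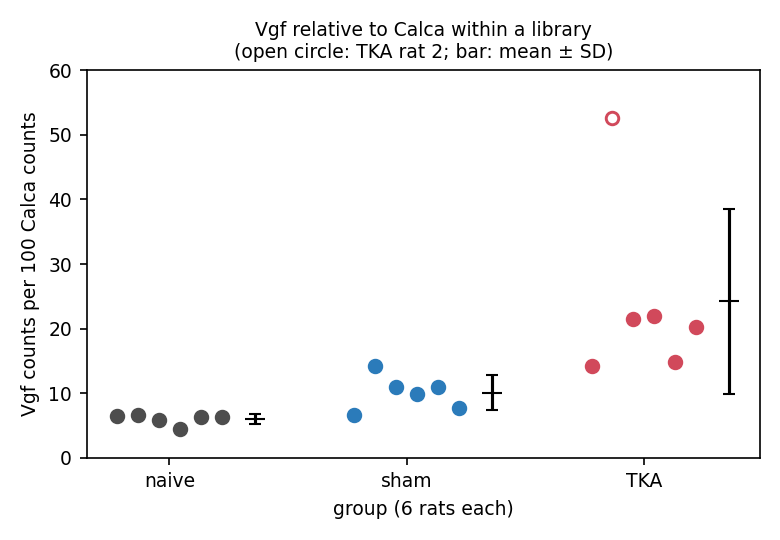
*Vgf* counts per 100 *Calca* counts in the same library (y axis) for each of 6 naive, 6 sham and 6 TKA rats (x axis), with the mean and SD as a bar. The naive rats sit between 4.48 and 6.68, and all TKA rats sit above all others, TKA rat 2 (open circle) at 52.6.

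*Alkal2* per 100 *Calca* counts was 0.334 ± 0.192 in naive, 1.85 ± 0.748 in sham and 4.92 ± 2.60 in TKA rats (SD, n = 6 each). By contrast, *Calcb* per 100 *Calca* counts was 31.2 ± 3.38, 30.5 ± 3.84 and 30.6 ± 5.76, with 19.6 in TKA rat 2 as the lowest value. How reads shared between *Calca* and *Calcb*, and between the *Calca* transcripts, were counted is not given in the sources used here, so that these ratios are uncertain. The second *Calca* transcript (ENSRNOT00000014948) had 3.26 ± 0.665, 4.08 ± 0.682 and 4.66 ± 2.62 CPM and was at 0 in TKA rat 2. Its log2 fold-change between TKA and naive rats was 0.52 (SE 0.64, adjusted p = 0.693), and without TKA rat 2 the single-transcript exact permutation p was 0.0130.

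Genes of the same pathways were followed where a transcript name was at hand, which was the case for 17 transcripts. None was called in any pair of groups with all rats, where the share of all transcripts called was as given above. Of 15 tested, 3 were called without TKA rat 2 between TKA and naive rats (*Fos*, *Egr1* and *Jun*), against 113 of all 15441 transcripts (0.732%). Among granins and peptide processing enzymes, 5 of 12 listed genes had a name, and their median log2 fold-change between TKA and naive rats was -0.35, against 0.02 over all transcripts. *Chga* and *Chgb*, granins stored with neuropeptides, were on the opposite side of zero from *Vgf*. *Chga* had a log2 fold-change of -0.35 (SE 0.11, adjusted p = 0.166) and *Chgb* of -0.53 (SE 0.20, adjusted p = 0.219), *Chgb* being at 109.9 CPM in TKA rat 2 and 223.5 to 323.8 CPM in the other TKA rats. These were -0.30 (SE 0.092, adjusted p = 0.129) and -0.38 (SE 0.11, adjusted p = 0.114) without TKA rat 2. The neuronal sum, mostly of neurofilament transcripts, was low in most TKA rats, as given above, and its part in these values was not tested. The convertase inhibitor *Pcsk1n* was at -0.53 and the convertases *Pcsk5* and *Pcsk6* were at 0.16 and 0.68, with *Pcsk6* at 162.2 CPM in TKA rat 2 and 103.3 CPM in TKA rat 6 against at most 55.4 CPM in the other rats.

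Of the CGRP family and its receptor, 3 of 9 listed genes had a name, with a median log2 fold-change of 0.52 between TKA and naive rats. *Calcb* was at 0.16 (SE 0.43, adjusted p = 0.864) and adrenomedullin (*Adm*) at 0.52 (SE 0.38, adjusted p = 0.503). Without TKA rat 2, *Calcb* was at 0.41 (SE 0.11, adjusted p = 0.0955) and *Adm* at 0.34 (SE 0.375, adjusted p = 0.726). Without TKA rats 2 and 6, *Calcb* was at 0.50 (SE 0.092, adjusted p = 0.0162), which is less than 1.5-fold and was not called. The value of *Calcb* thus depended on TKA rat 2, as that of *Calca* did. *Ramp1*, the accessory protein of the CGRP receptor, was at 1.60 (SE 0.53, adjusted p = 0.181), and at 0.99 (SE 0.40, adjusted p = 0.244) without TKA rat 2. Its highest values, 32.5 and 13.7 CPM, were in TKA rats 2 and 6, the libraries richest in Schwann cell transcripts, and the other TKA rats had 8.37, 3.21, 4.59 and 10.4 CPM against 1.07 to 5.78 CPM in naive rats. The part of the cell makeup in this value was not tested. None of the 3 listed genes of the ALK axis (*Alk*, *Ltk* and *Alkal1*) had a name at hand, so the receptor side of *Alkal2* was not analysed here.

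Among the other secreted factors, 4 of 15 had a name and 2 passed the filter on low counts, with a median log2 fold-change of 0.36 between TKA and naive rats. *Galp* did not pass it, with 3 counts in naive rat 3 and 0 in every other rat. *Csf1*, a growth factor for macrophages and microglia, passed the graded test (slope 0.51 per step, SE 0.12, adjusted p = 0.0400) but not without TKA rat 2 (0.47, SE 0.13, adjusted p = 0.0641). Its level went from 4.55 ± 1.75 CPM in naive to 5.62 ± 0.982 CPM in sham and 9.16 ± 2.39 CPM in TKA rats (SD, n = 6 each). Unlike the members, *Csf1* was not low in TKA rat 2, at 11.0 CPM. Neuromedin B (*Nmb*) was at -0.30 between TKA and naive rats (SE 0.37, adjusted p = 0.705) and was 8.88-fold below the median of the other rats in TKA rat 2. Without that rat, *Nmb* was at -0.07 (SE 0.14, adjusted p = 0.870). The named transcript of *Bdnf*, a neurotrophin, did not pass the filter with all rats, with at most 0.556 CPM in naive rats and 1.83, 0, 3.08, 2.20, 0.309 and 1.93 CPM in TKA rats. Without TKA rat 2 the filter asks for fewer rats with enough counts, and *Bdnf* passed it mainly through TKA rats. The other TKA rats had 44, 89, 46, 8 and 45 counts, against at most 12 in naive and 9 in sham rats. It then passed the graded test (slope 1.79, SE 0.43, adjusted p = 0.0455), but not without TKA rats 2 and 6 (adjusted p = 0.101). This pass is not independent of the filter, so nothing is concluded from it.

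Of the activity-dependent transcription factors, 5 of 6 had a name and 4 passed the filter, with a median log2 fold-change of 0.93 between TKA and naive rats and 0.31 between sham and naive rats, against 0.02 and 0.01 over all transcripts. *Fosb* did not pass the filter. Its mean was 0.354 CPM in naive, 0.0819 CPM in sham and 0.139 CPM in TKA rats, too low to compare. *Fos* and *Jun*, which pair into AP-1, rose along the groups (slopes of 0.72 and 0.42 per step, SE 0.17 and 0.11, adjusted p = 0.0383 and 0.0499). The slopes were 0.80 and 0.49 without TKA rat 2 (adjusted p = 0.00724 and 0.00590), and *Egr1* passed too (0.60, adjusted p = 0.0129). *Fos* had 30.1, 7.08, 44.5, 30.1, 9.95 and 16.7 CPM in TKA rats, against 6.63 to 10.3 CPM in naive rats. TKA rats 3 and 4, the highest for *Vgf*, were also the highest for *Jun*, at 468.2 and 386.1 CPM. *Egr1* and *Nr4a1*, both immediate early genes, were at 1.03 (SE 0.36, adjusted p = 0.194) and 0.54 (SE 0.16, adjusted p = 0.147) between TKA and naive rats. In all, 3 of the 14 listed transcripts tested passed the graded test upward and 0 downward, against 1.4% upward over all transcripts. It was 4 of 15 upward without TKA rat 2, *Bdnf* with its limit given above among them, against 206 of 16350 transcripts (1.26%) in either direction. Transcript names were at hand mostly for the leading transcripts of comparisons between these same rats, so these shares are not independent of the groups.

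**Figure D5:**
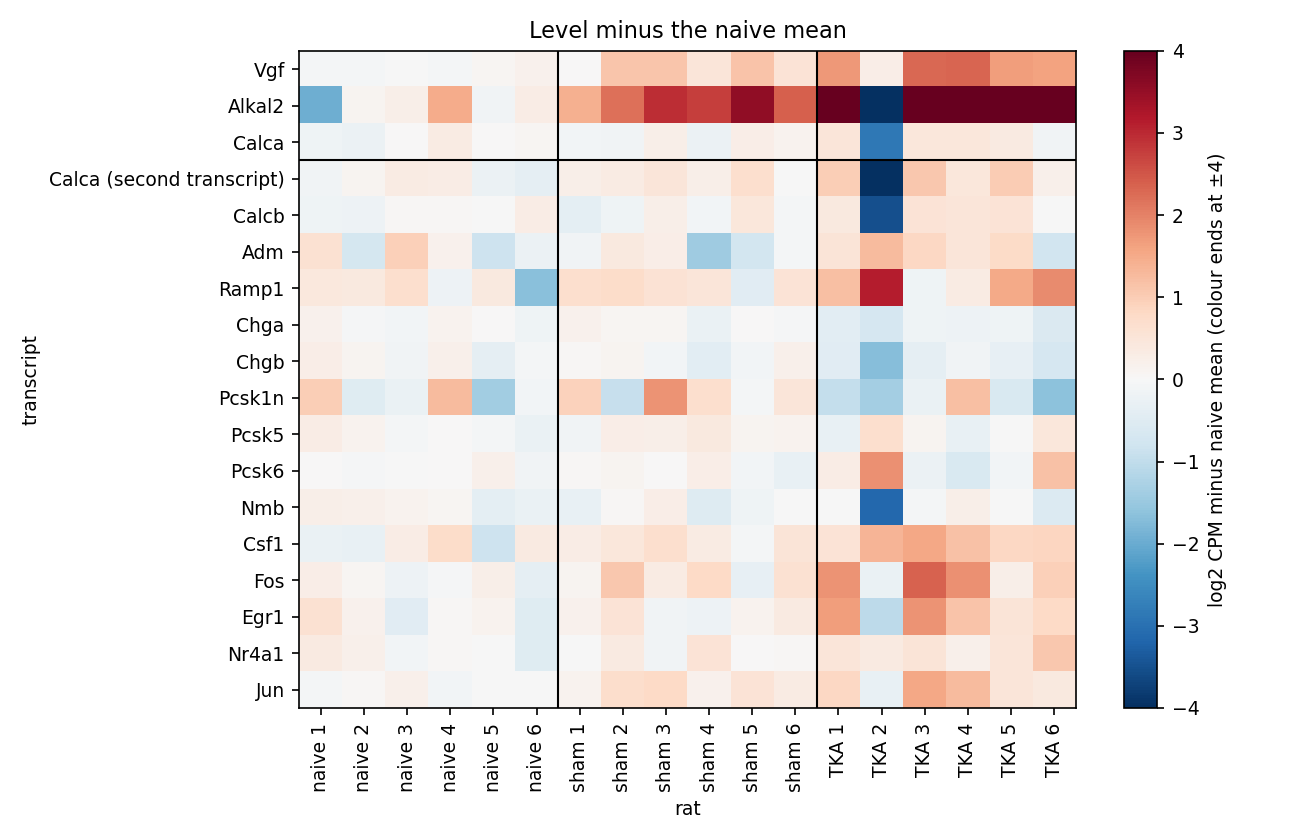
Log2 CPM minus the naive mean (colour, ending at ±4) for the 3 members (above the line) and 15 related transcripts (rows) in each of 18 rats (columns, split by group). *Alkal2* in the TKA rats runs past the end of the colour scale, and TKA rat 2 is low for *Alkal2*, *Calca*, the second *Calca* transcript, *Calcb* and *Nmb* but high for *Ramp1*.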

How the data were processed

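DRGs from the left L3 and L4 of 18 rats (6 naive, 6 sham and 6 TKA, grouped by their labels, 1 library per rat) were analysed. Paired-end 150 bp reads were mapped to rn6 by HISAT2, and the unnormalized featureCounts output, whole-number counts for each Ensembl transcript, was deposited by the authors. The submitters' processing notes also name DESeq2. Versions, annotation release, strand and overlap settings are not given in the sources used here, so reads shared by isoforms or paralogs leave single transcripts uncertain. Of 41078 transcripts, 26197 had counts, at 20230562 to 29343899 counts per rat.

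Each pair of groups was fitted with its own 12 rats in edgeR 4.0.16 (R 4.3.3) with filterByExpr, TMM and the quasi-likelihood F test, Benjamini-Hochberg adjusted over all transcripts kept, and called at an adjusted p below 0.05 with 1.5-fold or more. The graded fit (called at an adjusted p under 0.05) and the contrast of steps used 18 rats, and the sex interaction used the labels. The SE was obtained as the ratio of the log2 fold-change to the root of the F statistic. Log2 CPM used a prior count of 2. Exact permutation tests (scipy 1.17.1) were two-sided on log2 CPM, adjusted over 9 relations for correlations only. The fit was tested on simulated data. Alternatives were DESeq2 1.42.0 with unshrunken fold-changes, voom (limma 3.58.1) weighted by library quality, RLE size factors, no filter, a covariate for sex or for neurofilament level, a joint fit of the 3 groups, a block for rat number, and each rat left out. Leaving out TKA rats 2 and 6 together, the omissions for list genes, the omissions in the sex interaction and the ratios to *Calca* were added after seeing the data.

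The members and lists were chosen with earlier results of these data known. The genes named were the members, the second *Calca* transcript, every list gene with a transcript name, and the 5 named transcripts most like each member by Pearson's r over 18 rats and over 17. Other names stand for marker lists that checked the tissue. Names came from the published lists of transcripts (3837 transcripts), which are taken from the top of sorted comparisons of these rats, so members of a list without a name were not analysed here and the named ones are not an unbiased sample. Upstream sequences are those of RefSeq on GRCr8.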

Additional observations from a re-analysis of the deposited data

Results flagged for a closer look

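In the TKA group, TKA rat 2 lay far below the other 5 rats, by Dixon's criterion for 1 sample apart from its group, in 5 of the 15 sets of 6 rats examined (5 transcripts in 3 groups), where chance gives about 0.75. On the log2 CPM scale it was at 5.18 for *Vgf*, where the next rat was at 6.52, and at 6.11 for *Calca*, where the next was at 8.83. *Alkal2* and the second *Calca* transcript had 0 counts in it and were at -3.52, where the next rats were at 4.91 and 1.92. *Calcb* was at 3.76, where the next rat was at 7.26. The same library had the highest sums of muscle, Schwann cell, satellite glia and macrophage transcripts of the 18, and their part in these levels was not tested.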

How the results depend on the processing

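DESeq2 called *Vgf* (log2 fold-change 0.80, adjusted p = 0.00671) and *Alkal2* (2.45, adjusted p = 0.000139) between sham and naive rats, where edgeR called neither. *Alkal2* between TKA and naive rats (4.12 and not called in edgeR) was called with DESeq2 (4.11), the neurofilament covariate (5.22), all 3 groups in one fit (4.12) and TKA rats 2 and 6 left out (4.45). With the rat number as a replicate block, *Vgf* between TKA and naive rats lost its call (1.68, adjusted p = 0.176), as did the slope of *Alkal2* (2.04, adjusted p = 0.0606), and the uncalled values of *Calca* turned negative, at -0.15 for TKA against sham rats, -0.13 for TKA against naive rats, -0.014 for the slope and -0.11 for the difference of steps. With the neurofilament covariate the same uncalled values of *Calca* were higher than in edgeR's fit without it, at 0.77 against 0.07, 0.93 against 0.10 (adjusted p = 0.650) and 0.36 against 0.05 for the slope. Rats with the same number are not paired by the labels beyond sex, and their deviations correlated at -0.05 to 0.22, so the block result is given here only. The causes of these changes were not tested. With 1 rat left out, *Vgf* between TKA and naive rats ranged from 1.67 to 1.97 (8 of 12 omissions lost the call) and *Alkal2* from 3.9 to 4.57 (called only without TKA rat 2). *Calca* ranged from -0.024 to 0.10 for sham against naive rats, from -0.016 to 0.29 for TKA against sham rats and from -0.055 to 0.27 for the difference of steps, which for *Vgf* ranged from -0.028 to 0.38 and for *Alkal2* from -1.24 to -0.25. The sex interaction without TKA rat 2 or 4 ranged from -0.26 to -0.13 for *Vgf*, from -1.28 to -0.79 for *Alkal2* and from -0.50 to -0.093 for *Calca*. Counts of calls moved more than the members. DESeq2 called 5, 67 and 449 transcripts for sham against naive, TKA against sham and TKA against naive rats, where edgeR called 0, 0 and 13. For TKA against sham rats voom called 1 and the fit of all 3 groups 11. For TKA against naive rats voom called 123, the neurofilament covariate 39, all 3 groups in one fit 116, the replicate block 1, TKA rats 2 and 6 left out 105, and 1 rat left out from 3 to 113 (113 without TKA rat 2). The graded test called 272 transcripts, 986 with DESeq2, 19 with the block, 38 with the neurofilament covariate, 163 with sex as a covariate, and 38 to 508 with 1 rat left out. *Alkal2* in naive rats rests on 7 to 91 counts, which limits its fold-changes.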
